A study of Mus musculus with 2 samples.

Results

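Transcripts of 4 genes of M-band proteins were described: the myomesin genes Myom1, Myom2 and Myom3, and Obsl1, which codes for obscurin-like 1. They were taken by gene name from the deposited tables, and all reads and transcript models under those names were kept, 4 of 15631 annotated genes with reads. The samples were gastrocnemius, a calf muscle, of male mice of the strain B6CASTF1/J, a hybrid of C57BL/6J and CAST/EiJ, aged 10 days, with no treatment or mutation named and reads of the parental alleles not told apart. Total RNA, 2 µg a library, gave 1 library of long reads from each of 2 animals, which form 1 group with no contrast. The animals are labelled separately but share a donor entry. All tests therefore compare the 2 libraries with each other, and a spread over 2 may be technical in part.

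The M-band is the cross-link in the middle of the sarcomere, where neighbouring thick filaments are tied to each other and to titin. Myomesins are elongated proteins of immunoglobulin and fibronectin type III domains that bind myosin and form dimers across the band. Myomesin-1, from Myom1, is found in all striated muscle, M-protein, from Myom2, is known from fast fibres and the adult heart, and myomesin-3, from Myom3, is known from intermediate fibres. Obscurin-like 1 binds titin and myomesin at the M-band, and outside muscle it acts in the 3M complex with the cullin Cul7 and with Ccdc8.

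The libraries held 1145490 mouse reads in replicate 1 and 941841 in replicate 2. A long read stands for 1 transcript whatever its length, so levels are reads per 1000000 mouse reads (CPM) and are not divided by length. A count of 0 allows 3 reads, or 2.62 CPM for replicate 1 and 3.19 CPM for replicate 2. Copies made by PCR were not told apart, so intervals cover counting error only. The fast-fibre markers were read in 8 of 8 genes, with summed levels of 142957 and 109435 CPM in replicates 1 and 2. Slow-fibre markers were read in 8 of 8, at 1563 and 1754 CPM. Of 8 heart markers 5 were at 0 in both libraries (Nppa, Nppb, Tnni3, Myl7 and Ryr2), and most reads of the rest were of Myl4, which young muscle also expresses, with 24 reads in replicate 1 and 40 in replicate 2. Fewer cells of a type and less RNA per cell cannot be told apart in such samples.

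Myom2 and Myom1 were abundant, and Obsl1 and Myom3 were read at low levels. Myom2 had 1180 reads in replicate 1 and 521 in replicate 2, which is 1030 CPM (95% Poisson interval 972 to 1091) and 553 CPM (507 to 603). It ranked 94th among all genes by mean level, at 792 ± 337 CPM (SD, n = 2). Myom1 had 839 and 425 reads, 732 CPM (684 to 784) and 451 CPM (409 to 496), a mean of 592 ± 199 CPM. Within each library Myom2 lay above Myom1 with intervals that did not overlap, but Myom2 in replicate 2 lay below Myom1 in replicate 1. Obsl1 had 45 and 15 reads, 39.3 CPM (28.7 to 52.6) and 15.9 CPM (8.91 to 26.3). Myom3 had 17 and 8 reads, 14.8 CPM (8.65 to 23.8) and 8.49 CPM (3.67 to 16.7). The order of Obsl1 and Myom3 was clear of counting error in replicate 1, and their intervals overlapped in replicate 2.

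**Figure D1:**
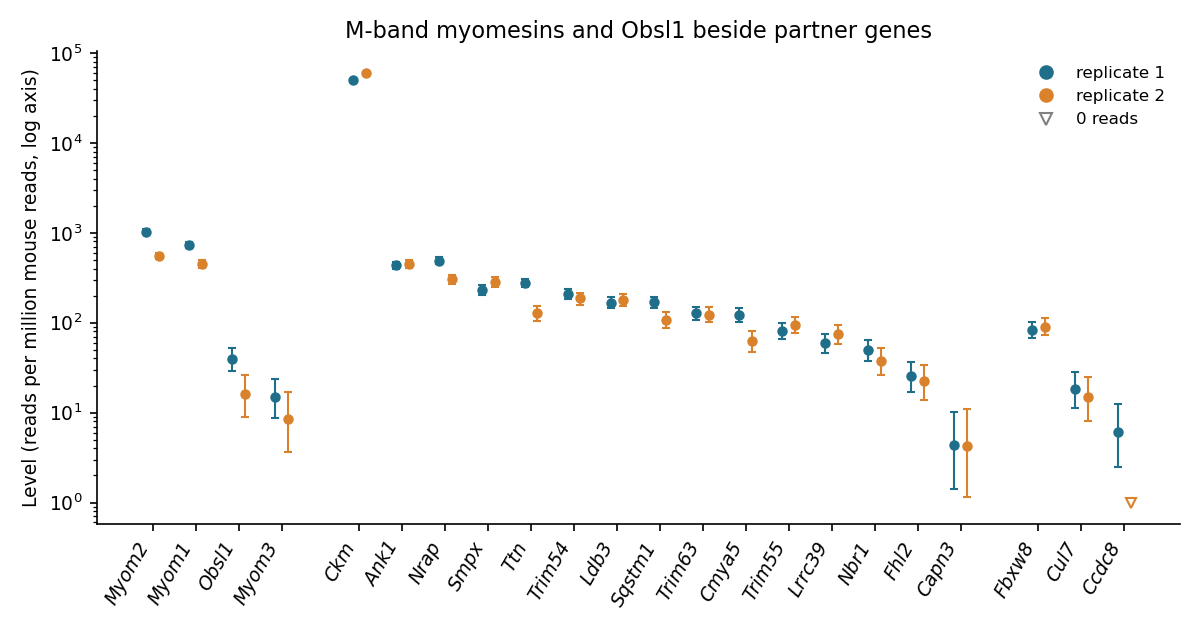
Level of each gene (CPM, log axis) in replicate 1 and replicate 2, with 95% Poisson intervals as bars, and a gene with 0 reads drawn as an open triangle at the foot. The myomesins and Obsl1 stand at the left, the M-band partner list in the middle and the list of 3M complex partners of Obsl1 at the right. Myom2 and Myom1 lie above every partner but Ckm in replicate 1, and Myom3 lies lowest of the 4 genes.

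Among myomesin reads, M-protein and myomesin-1 transcripts shared nearly all. The share of Myom2 was 58.0% of 2036 reads (Clopper-Pearson interval 55.8 to 60.1) in replicate 1 and 54.6% of 954 (51.4 to 57.8) in replicate 2. Myom1 held 41.2% (39.1 to 43.4) and 44.5% (41.4 to 47.8), and Myom3 0.835% (0.487 to 1.33) and 0.839% (0.363 to 1.65). The intervals of the libraries overlapped for each gene. There were 1.41 reads of Myom2 for each of Myom1 (1.29 to 1.54) in replicate 1 and 1.23 (1.08 to 1.40) in replicate 2. Counted over reads that reach the first exon, Myom2 held 62.6% and 59.0%, higher than over all reads, and Myom3 0.445% and 0%.

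All 4 genes had lower levels in replicate 2 over all their reads, to unequal degrees. The gene test was an exact two-sided binomial test between the libraries, adjusted by Benjamini-Hochberg over 7516 genes, and calls needed 2-fold or more besides an adjusted p below 0.05. Obsl1 was the 1 gene called of the 4, where 2.71% of all genes tested were called. Its reads were 2.41-fold more frequent in replicate 1 (adjusted p = 0.0238, binomial test). Myom2 was 1.86-fold higher in replicate 1 (adjusted p = 1.1e-31, binomial test) and Myom1 1.62-fold (adjusted p = 1.8e-14, binomial test), so both passed the p-value and not the fold. Myom3, 1.69-fold higher, did not pass (adjusted p = 0.564, binomial test). At any fold, 3 of the 4 genes passed as higher in replicate 1, against 4.47% of the genes tested in that direction and 9.11% in either. When only reads of annotated transcripts were counted, Myom2 was called, with a log2 ratio of replicate 2 to replicate 1 of -1.05 in place of -0.90. Obsl1 then had 7 reads in replicate 1 and 6 in replicate 2, or 6.11 and 6.37 CPM, which is under the minimum of 20 reads for a test, so its call was lost and its levels were no longer lower in replicate 2.

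Genes with long transcripts tended to be lower in replicate 2, and the members were lower still than the median of their length class. The median length of the model behind a read was 2130 nt in replicate 1 and 1925 nt in replicate 2. Among the 4 genes the differences did not follow length. Over 741 genes whose main annotated transcript has 4500 nt or more and under 6000 nt, the median log2 ratio of replicate 2 to replicate 1 was -0.35, and over all genes tested it was -0.01. Myom1 (main transcript of 5316 nt) had a log2 ratio of -0.70, and 186 of the 741 genes lay lower. Myom2 (5075 nt) had -0.90, with 114 lower, and Myom3 (5575 nt) -0.76, with 160 lower. Less the median of its length class, an alternative chosen after seeing the data, the log2 ratio was -0.35 for Myom1 and -0.55 for Myom2. Obsl1, whose main annotated transcript has 3379 nt, had a log2 ratio of -1.27 where its class of 1865 genes had a median of -0.10, and 33 of them lay lower. That class may not stand for all Obsl1 reads, since 21 of 45 and 5 of 15 ended with a transcript of 5679 nt, in the class with a median of -0.35. Summed marker levels in replicates 1 and 2 were lower in replicate 2 for fast fibres, fibroblasts (19773 and 11976 CPM), embryonic muscle (3213 and 1826 CPM), endothelium (153 and 111 CPM) and Schwann cells (1701 and 1300 CPM). They were higher in replicate 2 for slow fibres, red cells (409 and 853 CPM) and the heart list (27.1 and 49.9 CPM). A few abundant genes weigh most in such sums, and genes within a list did not all move alike. Tnnc2 and Tnnt3 of the fast-fibre list and Dcn of the fibroblast list were higher in replicate 2, against their sums. Myh7 and Atp2a2 of the slow-fibre list were lower in replicate 2, against its sum. The part of transcript length, read length or cell content in these differences was not tested. The labels cite different versions of the pipeline document for the 2 libraries, so version and animal cannot be told apart.

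**Figure D2:**
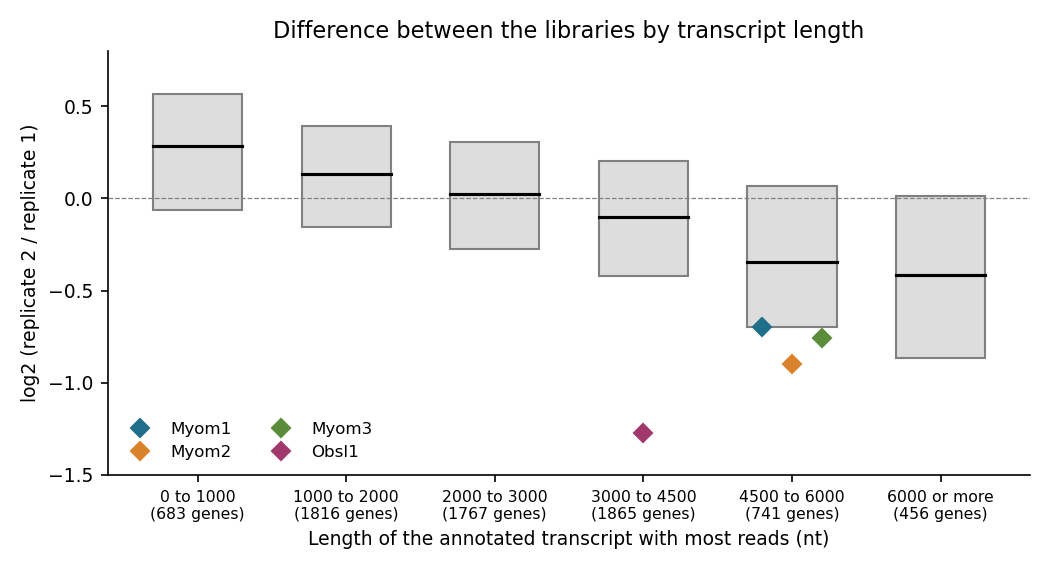
Log2 ratio of replicate 2 to replicate 1 (vertical axis) for genes grouped by the length of their main annotated transcript (horizontal axis, nt), with boxes from the lower to the upper quartile, a black line at the median and the members as diamonds. Medians fall from 0.28 for genes under 1000 nt to -0.42 for genes of 6000 nt or more. Myom2 and Myom3 lie below the lower quartile of their class, -0.70, and Myom1 lies beside it.

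The 3 myomesin genes share their exon plan. Myom1 lies on chromosome 17 from 71002633 to 71126856 (mm10, plus strand), Myom2 on chromosome 8 from 15057653 to 15133541 (plus) and Myom3 on chromosome 4 from 135759715 to 135815564 (plus). With exon 18 of Myom1 set aside, the full-length annotated transcript of each has 37 exons. Of the 34 coding exons from the third to the one before the last, 22 have the same length in all 3 genes, and in all 34 the lengths differ by multiples of 3. Over the 2493 nt of those 22 exons, 58.2% of bases were identical between Myom1 and Myom2, 54.7% between Myom2 and Myom3 and 53.0% between Myom1 and Myom3. The smallest exon is the third from the end, 23 nt in each gene. It is shown with 15 bases of the exon on either side, the small exon in capitals, because its length is kept while its bases are not. In Myom1 it is exon 36 (chr17:71121126-71121148, plus strand), in Myom2 exon 35 (chr8:15130635-15130657, plus) and in Myom3 exon 35 (chr4:135810935-135810957, plus).
Myom1 exon 36: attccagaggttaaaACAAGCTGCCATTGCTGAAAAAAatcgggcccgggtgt
Myom2 exon 35: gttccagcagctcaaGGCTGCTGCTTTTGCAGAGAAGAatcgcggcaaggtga
Myom3 exon 35: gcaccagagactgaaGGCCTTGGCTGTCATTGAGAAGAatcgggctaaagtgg
Of the 23 bases, 14 are the same in Myom1 and Myom2, 14 in Myom2 and Myom3, and 9 in Myom1 and Myom3. The sequences are those of the GENCODE M21 transcripts.

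**Figure D3:**
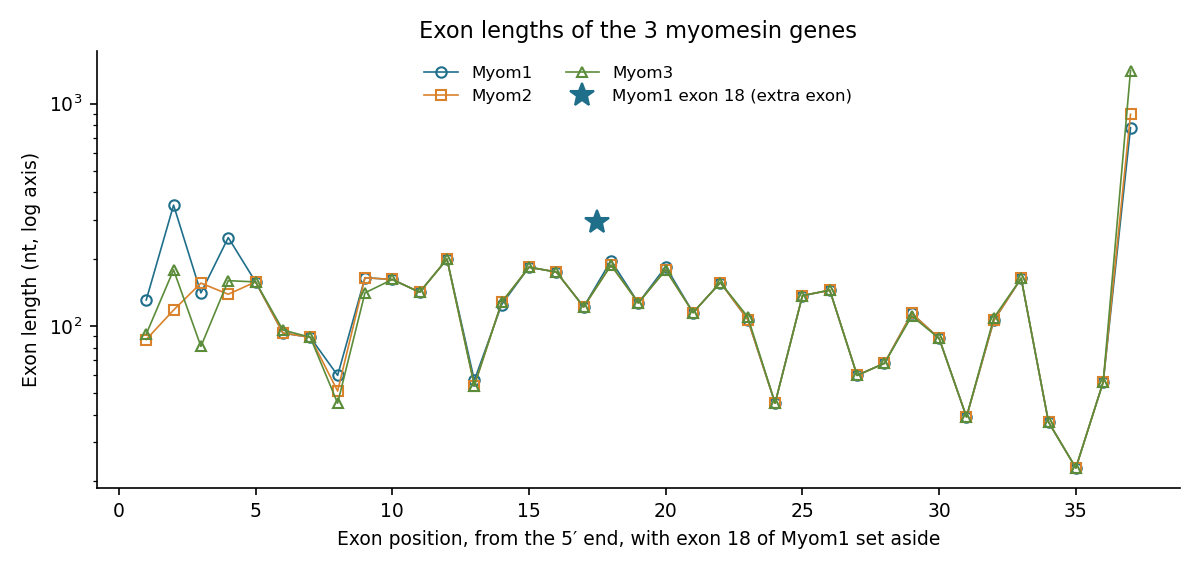
Exon length (nt, log axis) against exon position from the 5′ end for the annotated full-length transcripts of Myom1, Myom2 and Myom3, with exon 18 of Myom1, the extra exon of 294 nt, as a star between positions 17 and 18. From position 5 to position 36 the 3 lines lie nearly on each other, down to 23 nt at position 35.

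Myom1 was read almost wholly without exon 18. This exon codes for the EH segment, a stretch between the domains of myomesin-1 that is known from the embryonic heart, and 1 annotated full-length transcript of 38 exons holds it while that of 37 exons does not. It lies at chr17:71082203-71082496 (mm10, plus strand), has 294 nt or 98 codons, and holds 0 stop codons in the frame of the exons before it. Its sequence is given in capitals with the 3 bases before and after it in the spliced transcript.
Myom1 exon 18: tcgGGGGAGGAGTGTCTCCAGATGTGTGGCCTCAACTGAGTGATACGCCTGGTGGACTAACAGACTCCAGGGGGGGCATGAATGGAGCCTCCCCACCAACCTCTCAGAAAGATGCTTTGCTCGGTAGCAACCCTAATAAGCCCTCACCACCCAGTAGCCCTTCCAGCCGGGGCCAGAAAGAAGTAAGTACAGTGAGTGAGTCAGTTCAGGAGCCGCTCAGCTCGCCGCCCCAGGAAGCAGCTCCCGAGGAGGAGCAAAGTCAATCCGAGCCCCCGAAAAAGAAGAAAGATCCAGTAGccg
A read spans the exon where it has introns on both sides of it or skips over it. In replicate 1, 6 of 723 spanning reads held exon 18, 0.830% (Clopper-Pearson interval 0.305 to 1.80). In replicate 2, 10 of 314 did, 3.18% (1.54 to 5.78). The share was low in both libraries and the intervals overlapped. The exon was outside the inclusion range of 5% to 95% that was tested. With that range widened to 1% to 99%, chosen after seeing the data, its p was 0.0102 unadjusted and 1 adjusted over 5900 exons (Fisher's exact test), where 0.119% of exons passed. The annotated transcript of 38 exons itself had 4 and 6 reads, and that of 37 exons and 5316 nt had 461 and 204, or 54.9% (Wilson interval 51.6 to 58.3) and 48.0% (43.3 to 52.7) of the reads of the gene. In replicate 2, 12 reads sat in a model drawn as starting in exon 18 and running through the intron into exon 19, and in replicate 1 none did. TALON, the tool whose attributes the deposited models carry, kept 1 model for each chain of introns in both libraries, so the drawn start of a model is not the start of each of its reads.

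The other 35 inner exons of Myom1 were held in over 95% of spanning reads. Of these the 23-nt exon was left out most often, in 16 of 783 spanning reads of replicate 1 and 8 of 359 of replicate 2, which is an inclusion of 98.0% (96.7 to 98.8) and 97.8% (95.7 to 99). In 12 and 7 of these reads an unannotated intron, chr17:71120683-71122538, ran from exon 35 to 18 nt before exon 37. The 23 nt lost and 18 nt gained leave the transcript 5 nt shorter, which is not a multiple of 3. The skip to the annotated start of exon 37 had 0 reads in both libraries. A first exon far upstream of the usual one was held by 1 read in each library.

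Many Myom1 reads were in models that did not reach the usual first exon. The usual first exon was reached by 499 of 839 reads in replicate 1, 59.5% (Wilson 56.1 to 62.7), and by 231 of 425 in replicate 2, 54.4% (49.6 to 59.0), and these intervals overlapped. A model that begins in exon 2 and holds all later introns had 88 reads in replicate 1 and 12 in replicate 2, 10.5% (8.59 to 12.7) and 2.82% (1.62 to 4.87) of the reads of the gene (adjusted p = 0.00024, Fisher's exact test over 70901 models). Single-exon incomplete reads numbered 47 and 61, or 5.60% (4.24 to 7.37) and 14.4% (11.3 to 18) (adjusted p = 0.00021, Fisher's exact test), and 46 of the 47 and all 61 lay in the last exon. These 2 of 88 models of Myom1 passed the adjusted p, against 0.31% of all models, moved in opposite directions, and did not reach the 10 points needed for a call. No model of Myom1 or Myom2 was called, where 0.148% of all models were. Of the 23 Myom1 models with 5 or more reads in either library, 19 were spliced and labelled incomplete, without the 5′ end. They had 12 to 36 exons and together held 249 and 105 reads. The only unannotated spliced model among the 23 was the form without the 23-nt exon, with 6 and 2 reads. Whether the models labelled incomplete start where they are drawn or lack their 5′ end was not tested. This holds also for the model that begins in exon 2.

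**Figure D4:**
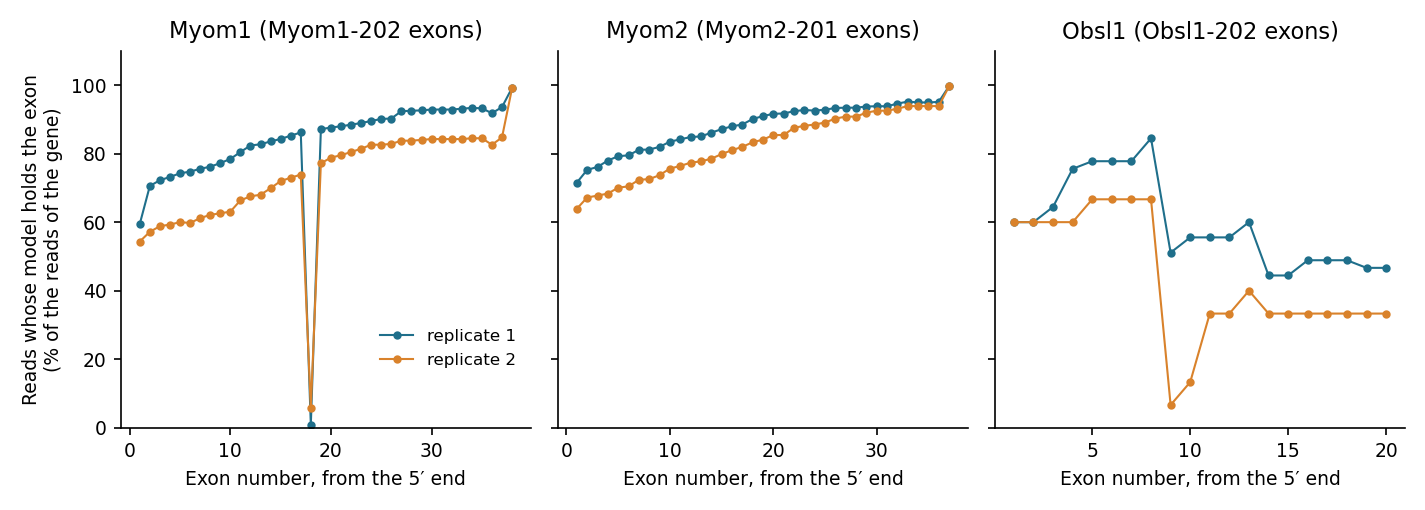
Share of the reads of Myom1, Myom2 and Obsl1 whose model holds each exon (vertical axis, % of the reads of the gene) by exon number from the 5′ end, for replicate 1 and replicate 2. Myom1 and Myom2 rise from 54.4% to 71.5% at exon 1 to over 99% at the last exon. Myom1 drops to 0.954% and 5.65% at exon 18, and Obsl1 drops after exon 8. The values at exon 18 also count reads without introns on both sides of it. Of spanning reads, 0.830% in replicate 1 and 3.18% in replicate 2 held exon 18.

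Myom2 was read mostly as its 1 annotated full-length transcript. This transcript, with 37 exons and 5075 nt, had 784 and 310 reads, 66.4% (63.7 to 69.1) of the reads of the gene in replicate 1 and 59.5% (55.2 to 63.6) in replicate 2, and the difference did not pass (adjusted p = 0.855, Fisher's exact test). Its first exon was reached by 71.5% (68.9 to 74.0) and 63.9% (59.7 to 67.9) of reads. Over 349 genes of like length with 20 or more reads in each library, the median share was 82.1% and 81.8%, so Myom2 and Myom1 both lay below it. Of these genes, 109 in replicate 1 and 84 in replicate 2 had a lower share than Myom2, and 64 and 62 a lower share than Myom1. Of 27 Myom2 models with 5 or more reads in either library, 22 were spliced and labelled incomplete, with 5 to 37 exons and 220 and 120 reads together. Single-exon reads, deposited as genomic, numbered 49 and 28, and 48 and 28 of them lay inside the last exon.

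Exons between exon 1 and exon 2 of Myom2 were also read in both libraries, in part as the drawn start of a model. They lie before the annotated start of the coding sequence at position 15063854 in exon 2 (chr8:15063843-15063960). The first exon of an annotated retained-intron transcript (chr8:15060190-15060422) began models that run on into exon 2 in 38 reads of replicate 1 and 16 of replicate 2, which is 3.22% (2.29 to 4.39) and 3.07% (1.77 to 4.94) of the reads of the gene. Of these, 33 and 12 reads formed 1 unannotated model of 37 exons that ended with the gene. The first exon of another partial annotated transcript (chr8:15058975-15059113) began 9 and 2 such reads. In all, 60 and 24 reads held an exon between exons 1 and 2, 5.08% (3.90 to 6.50) and 4.61% (2.97 to 6.78), and the intervals of the libraries overlapped. Of these, 13 and 6 reads began at the annotated first exon and ran through such an exon to exon 2. Whether the other models start where they are drawn or are incomplete at the 5′ end was not tested. Reads from exon 1 straight to exon 2 numbered 825 and 325.

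Within the coding part of Myom2, all 35 inner exons were held in over 95% of spanning reads. Exon 6, with 93 nt, was skipped in 12 of 937 and 4 of 366 spanning reads, and in 8 and 3 of them it was left out alone by an unannotated intron. The exon at the same place in Myom1, also of 93 nt, was held in all 623 and all 253 spanning reads. Exon 31, with 39 nt, was shortened by 3 nt in 10 of 1106 and 2 of 481 reads that held it. In 3 and 1 reads, exon 1 was joined to exon 14, which leaves out the annotated start of the coding sequence.

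Myom3 was too shallow to describe by isoform. Its annotated transcript of 37 exons and 5575 nt had 5 reads in replicate 1 and 0 in replicate 2. The first exon was reached by 6 of 17 and 0 of 8 reads, and 4 and 6 reads lay in the last exon alone. Of 12 spanning reads in replicate 1, 11 held the 23-nt exon. No inner exon had 20 spanning reads.

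The promoters of Myom1 and Myom3 hold a stretch in common. RefSeq (GRCm38.p6) gives 250 bases before the start for 3 of the 4 genes, Myom1, Myom3 and Obsl1. The longest run shared by Myom1 and Myom3 has 13 bases, printed in capitals. It begins 125 bases before the RefSeq start of Myom1 and 39 bases before that of Myom3. The run was found on either strand in 2 of 32851 promoter windows of this length, which are these 2. Inside it lies CTATATTTA, which resembles the A/T-rich element that MEF2 factors are known to bind. CTATATTTA is held on either strand by 0.186% of windows, and not by the Obsl1 window. Whether any factor binds there was not tested. The run was looked for after the sequences were seen, and it is shown as a shared feature and not as a site. The window of Myom1 runs on into an annotated exon, since its RefSeq start lies past the first base of that exon. It is printed only up to that base, chr17:71019307-71019520 (plus strand), and that of Myom3 in full, chr4:135759465-135759714 (plus).
Myom1 promoter: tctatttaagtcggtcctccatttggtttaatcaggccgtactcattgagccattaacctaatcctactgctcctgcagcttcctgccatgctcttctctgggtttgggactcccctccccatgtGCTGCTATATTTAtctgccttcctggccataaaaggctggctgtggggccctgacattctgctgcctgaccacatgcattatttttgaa
Myom3 promoter: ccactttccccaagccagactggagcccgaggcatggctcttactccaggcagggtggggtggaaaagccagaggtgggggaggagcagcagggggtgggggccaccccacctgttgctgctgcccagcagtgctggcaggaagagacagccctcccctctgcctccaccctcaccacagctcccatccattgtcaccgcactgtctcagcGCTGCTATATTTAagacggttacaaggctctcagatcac

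Obsl1 was read as short and long forms that differ at the 3′ end. The gene lies on chromosome 1 from 75479310 to 75506452 (mm10, minus strand). Its annotated coding transcripts include a long one of 20 exons and 5412 coding nt, a middle one of 12 exons and 3485 coding nt, and a short one of 9 exons and 3075 coding nt. Of 45 reads in replicate 1, 15 ended in the last exon of the short transcript (33.3%, Clopper-Pearson interval 20 to 49), 7 in that of the middle one (15.6%, 6.49 to 29.5), 21 in that of the long one (46.7%, 31.7 to 62.1) and 2 elsewhere. Of 15 reads in replicate 2, 9 ended at the short end (60%, 32.3 to 83.7), 1 at the middle end and 5 at the long end (33.3%, 11.8 to 61.6). The intervals overlapped for each end, and a difference in the use of an end was not detectable at this depth. Reads that ran from the first exon to the end numbered 13 and 8 for the short end, 6 and 1 for the middle end and 8 and 0 for the long end. At the short end, 11 and 2 reads kept the last intron of the short transcript, 24.4% (12.9 to 39.5) and 13.3% (1.66 to 40.5) of the reads of the gene. In 4 and 7 reads it was removed, 8.89% (2.48 to 21.2) and 46.7% (21.3 to 73.4), and these last intervals did not overlap. This difference was not tested, since Obsl1 had fewer than 20 reads in replicate 2. The commonest form in replicate 1 was an incomplete model of 8 exons that keeps this intron, with 8 and 2 reads, and in replicate 2 it was the short transcript, with 4 and 5 reads.

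**Figure D5:**
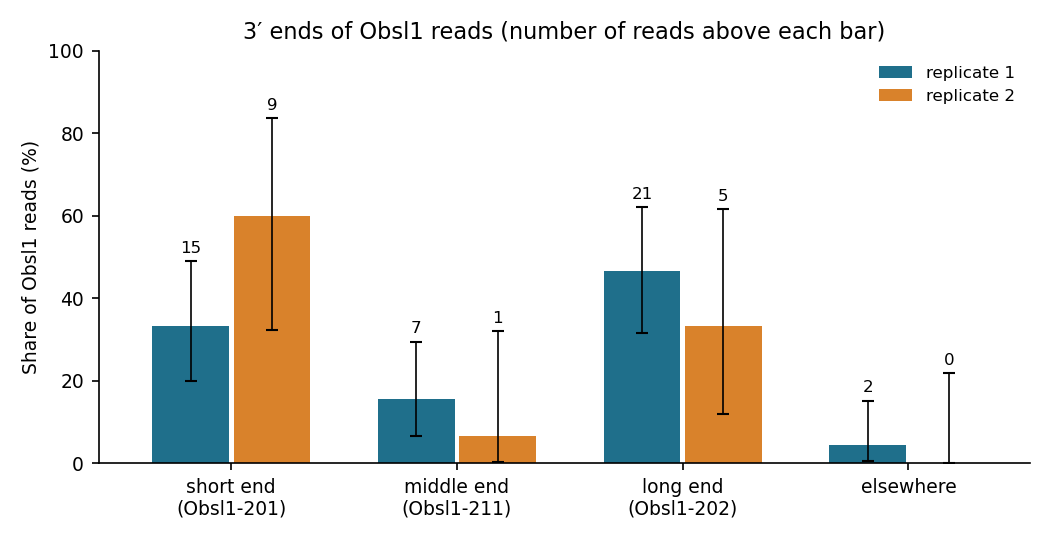
Share of Obsl1 reads (%) that end in the last exon of the short, middle or long annotated transcript, or elsewhere, in replicate 1 (45 reads) and replicate 2 (15 reads), with Clopper-Pearson intervals as bars and the number of reads above. The short and the long end hold most reads in both libraries, and the intervals of the libraries overlap at each end.

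The long form of Obsl1 held an extra exon in some reads of replicate 1. In the long transcript, the 13 exons from exon 2 to exon 14 have 252 to 303 nt, and all 13 lengths are multiples of 3. The extra exon, of 276 nt or 92 codons, lies between exons 11 and 12 (chr1:75492067-75492342, minus strand) and is annotated in a partial transcript and absent from the long one. It holds 0 stop codons in the frame of the exons before it. Its sequence, from GENCODE M21, is given in capitals with 12 bases of the neighbouring exons.
Obsl1 extra exon: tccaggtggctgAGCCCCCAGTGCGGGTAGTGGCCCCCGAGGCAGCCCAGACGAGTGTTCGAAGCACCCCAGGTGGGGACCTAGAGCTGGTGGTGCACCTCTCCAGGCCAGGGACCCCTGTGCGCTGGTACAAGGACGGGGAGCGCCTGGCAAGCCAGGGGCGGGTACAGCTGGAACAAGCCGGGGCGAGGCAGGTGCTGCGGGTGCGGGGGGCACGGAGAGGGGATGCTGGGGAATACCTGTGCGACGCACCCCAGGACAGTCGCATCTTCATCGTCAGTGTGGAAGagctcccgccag
It was held in 14 of 23 spanning reads in replicate 1, 60.9% (Clopper-Pearson interval 38.5 to 80.3), and in 0 of 4 in replicate 2, where the interval reaches 60.2%. With fewer than 20 spanning reads in replicate 2, the exon was not tested. Of the 14 reads, 13 ended at the long end and 1 at the middle end. All 7 reads of an unannotated model of 21 exons and 5955 nt, the long transcript with this exon added, came from replicate 1, and the long transcript itself had 0 reads in both libraries. This was the only annotated exon of the 4 genes held in 5% to 95% of at least 20 spanning reads. By the same rule 2 unannotated forms also count, exon 37 of Myom1 with its 18 nt added (12 of 13 and 7 of 7) and exon 31 of Myom2 less 3 nt (10 of 17 and 2 of 5), where reads with the annotated form are left out of the total. Over all genes, 0.175% of 1712 exons tested were called different between the libraries, and no exon of the 4 genes was among those tested.

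The deposited classes placed fewer reads of these genes in annotated transcripts than reads of all annotated genes, for which the share was 72.1% in replicate 1 and 76.4% in replicate 2. The annotated share was 55.4% (Wilson 52.0 to 58.8) and 49.4% (44.7 to 54.1) for Myom1, 66.4% and 59.5% for Myom2, 29.4% and 0% for Myom3, and 15.6% (7.75 to 28.8) and 40% (19.8 to 64.3) for Obsl1. Incomplete reads made up 40.6% and 45.4% for Myom1, 21.1% and 27.3% for Myom2, and 40% and 46.7% for Obsl1, against 8.82% and 7.63% over all annotated genes. Unannotated spliced reads were 42.2% (29.0 to 56.7) and 13.3% (3.74 to 37.9) of Obsl1 reads and 8.31% and 7.87% of Myom2 reads.

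Of the list of M-band partners, 15 of 15 genes were read, and 9 of them had 100 CPM or more. The list is wider than the M-band itself and also holds genes of proteins placed elsewhere in muscle, as named below. Ckm, the muscle creatine kinase that binds the M-band, was highest, at 49770 CPM in replicate 1 and 60459 CPM in replicate 2. Ttn, which codes for titin, had 277 and 127 CPM. The ankyrin gene Ank1, whose short form lies in the sarcoplasmic reticulum, had 437 and 452 CPM, and Nrap, which acts in myofibril assembly, 491 and 305 CPM. Smpx, a small muscle protein, had 230 and 285 CPM, and Ldb3, a Z-disc protein, 167 and 177 CPM. The ubiquitin ligases Trim63 and Trim54, which bind titin or microtubules, had 128 and 123 CPM and 210 and 186 CPM. Sqstm1, an autophagy receptor in the signalling of the titin kinase, had 168 and 108 CPM. Of 14 partners tested, Ttn was the 1 called, 2.17-fold higher in replicate 1 (adjusted p = 4.4e-12, binomial test), where 2.71% of all genes were called. At any fold, 5 passed the adjusted p, against 9.11% of all genes, 4 higher in replicate 1 (Ttn, Nrap, Sqstm1 and Cmya5, which had 122 and 62.6 CPM), against 4.47%, and 1 higher in replicate 2 (Ckm). The median log2 ratio of replicate 2 to replicate 1 was -0.12 over the 14 partners, -0.83 over the 4 members and -0.01 over all genes tested. Of the genes listed as 3M complex partners of Obsl1, Fbxw8 had 83.8 and 90.2 CPM, Cul7 18.3 and 14.9 CPM, and Ccdc8 7 reads in replicate 1 and 0 in replicate 2. Neither Fbxw8 nor Cul7 passed (adjusted p = 0.898 and 0.866, binomial test), and Cul7 had only 21 and 14 reads. Obsl1 was called over all its reads, and was too shallow to test over annotated transcripts only.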

How the data were processed

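The authors deposited counts for each library: raw long reads per transcript model, not normalized, for models with 1 or more read, with exons, class and gene of each model in an annotation file that carries TALON attributes, per the file headers. The build was mm10 with GENCODE M21, per the labels and file headers. Aligner and versions are not given in sources used here. The other deposited values used were exon positions, model lengths and exon numbers.

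The 4 members and all lists were chosen with earlier results of these data known. Reads were summed per gene and model, and unannotated models were matched between libraries by intron chain. The 4 genes, all their models of 5 or more reads, and partners of 100 CPM or more were named. Of the partner list, 1 gene is not reported here and is left out of its counts. Genes with 20 or more reads were tested by an exact binomial test, and models and exons by Fisher's exact test (20 or more reads per gene or spanning reads per exon in each library, 10 points), each adjusted by Benjamini-Hochberg over the whole table. The tests were tried on simulated counts with known changes and counting error only, so the trial does not bear on other variation between libraries. Classes are annotated, incomplete (part of an annotated chain of introns), unannotated spliced and genomic. Promoters came from RefSeq.

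Totals of 1172413 and 957529 reads include spike-ins, which were left out. Python 3.11.15, scipy 1.17.1, pandas 2.3.3 and numpy 2.4.6 were used, matplotlib 3.10.9 for figures, and, in R 4.3.3, DESeq2 1.42.0 and edgeR 4.0.16 for scaling alternatives. Other alternatives were annotated reads only, no genomic reads, other read minima, first-exon rules, recomputed classes and leaving out each library. Nothing bears on reads primed inside a transcript, since no genome sequence was used.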

Additional observations from a re-analysis of the deposited data

Results flagged for a closer look

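Reads from the strand opposite to Myom1, which enter no comparison above, exceeded the limit of 3 reads in both libraries. Antisense models over Myom1 held 9 reads in replicate 1 and 4 in replicate 2. In replicate 1, 4 of the reads lay in a single-exon model of 4196 nt that covers the intron between exons 25 and 26, and in both libraries a single-exon model had the same bounds as the first exon (131 nt), with 2 reads and 1 read. Antisense reads numbered 2 and 2 over Myom2, 0 and 0 over Myom3 and 3 and 2 over Obsl1.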

How the results depend on the processing

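Scaling by TMM or DESeq2 size factors, leaving out genomic reads and a minimum of 5 reads changed no direction and no call of the 4 genes. Counted over annotated transcripts only, mean levels were 314 CPM for Myom1, 2.18 CPM for Myom3 and 6.24 CPM for Obsl1, which was then too shallow to test and lost its call, the log2 ratio of Myom2 was -1.05 and passed the fold (adjusted p = 1.3e-27, binomial test), and 2 of 11 partners tested passed the adjusted p in place of 5. Mean shares of Myom1, Myom2 and Myom3 among myomesin reads were then 38.7%, 61.1% and 0.199%, without incomplete and genomic reads 37.9%, 61.9% and 0.216%, and over reads reaching the first exon 39%, 60.8% and 0.222%, in place of 42.9%, 56.3% and 0.837%. Without a fold limit 685 genes passed in place of 204, among them Myom1 (log2 ratio -0.70) and Myom2 (-0.90). With the fold limit kept and a minimum of 100 reads, 59 genes were called. Obsl1 and Myom3 had too few reads for a test at that minimum, so the call of Obsl1 was lost there too. Models called numbered 25 in place of 105 without incomplete and genomic reads. With a start within 100 nt, 52.2% of Obsl1 reads reached the first exon in place of 60%. With classes recomputed from introns, Myom2 had 9.11% unannotated spliced and 0.0424% genomic reads, in place of 8.09% and 4.76%. With 1 library left out, levels ranged from 451 to 732 CPM for Myom1, 553 to 1030 CPM for Myom2, 8.49 to 14.8 CPM for Myom3 and 15.9 to 39.3 CPM for Obsl1, and inclusion of exon 18 of Myom1 from 0.830% to 3.18%. Depth limits Myom3 and Obsl1 most. No paired analysis was possible because both libraries belong to 1 group.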
